A study of Mus musculus with 15 samples.

Results

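The genes described here were 10 inflammatory mediators and feedback inhibitors of NF-kB. They were chosen by name from the 20207 genes of each table, with earlier results of these data known. They comprised the chemokines Ccl2, Ccl7, Cxcl1, Cxcl5 and Cxcl12, the cytokines Il6 and Lif, the prostaglandin synthase Ptgs2, and the feedback genes Nfkbia and Tnfaip3. All 10 were present in the tables of all 15 samples. Poly(A) RNA was sequenced from NIH3T3, a line of mouse embryonic fibroblasts. The cells carried a stable DD-sfGFP transgene, which encodes a destabilizing domain (DD) derived from FKBP joined to superfolder GFP. The DD is folded while its ligand Shield-1 (S1) is bound and unfolds when S1 is taken away. There were 5 control samples (cont), 3 samples taken 45 min after S1 removal (DD 45min), 3 taken at 135 min (DD 135min) and 4 taken at 405 min (DD 405min). In the paper, the reference cells are those that kept their S1. All groups, the controls included, carried the transgene, and by the study's methods the cells had been sorted for high GFP and S1 was removed by adding purified FKBP(F36V) protein that had been made in bacteria. The methods do not describe that protein being given to the control samples, so in these files a response to the added protein and a response to the unfolded DD cannot be told apart. By the paper's methods, the same protein was used to remove S1 from cells with GFP alone. For the transcripts it measured there by RT-qPCR, the paper reports no significant changes. It also describes mRNA-seq of cells with GFP alone at the same times, to find effects of treating cells with S1. Cells with GFP alone, and other stresses that the study used, were not analysed here. The question was how these mRNAs changed, and when, after the unfolded protein appeared.

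NF-kB is a family of dimeric transcription factors that are held in the cytoplasm by inhibitors of the IkB family. When an upstream signal leads to IkB breakdown, the dimers enter the nucleus and activate genes for chemokines, cytokines and their own inhibitors, and the newly made inhibitors switch the response off again. Fibroblasts are known as a source of such chemokines after stress, injury or contact with microbial products. Transcripts of this kind are often short-lived, so their levels can rise and fall within hours.

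Levels are given as CPM, the usual depth-scaled counts with library totals adjusted by TMM, a method that aligns libraries on the bulk of their genes. Changes are log2 fold changes with their standard error (SE) from 1 edgeR quasi-likelihood fit over the 15 samples, and a gene was called when its Benjamini-Hochberg adjusted p over the 10276 genes tested was under 0.05. Of the 10 genes, 9 passed the minimum of 1 count per sample. Il6 did not, and its changes come from the fit without that filter. The labels do not say that the replicates were separate cultures, so p-values measure the spread between these samples, which may be technical.

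Library totals ran from 6652539 counts in control replicate 3 to 30258404. The libraries also fell into 2 sets by how steeply log2 CPM depended on the GC content of a gene's exons. Set 2 held 5 libraries, which were control replicate 2, replicate 3 at 45 min and replicates 1, 2 and 4 at 405 min, and set 1 held the other 10, including all samples at 135 min. The boundary was drawn at the largest gap between neighbouring slopes, 0.284 log2 CPM per 10 percentage points of GC, and the gap that set control replicate 3 apart on the other side was nearly as wide, 0.281. For library preparation the paper's methods describe a modified Illumina protocol and also a NuGEN kit, without saying which library had which. Whether the library sets follow the preparation could not be checked. In control replicate 3 the depth implied by the deposited RPKM was 1.74 times the median library's per count in genes, against 0.88 to 1.24 in the others. Its CPM was the highest of the 5 controls for Ccl2, Ccl7, Cxcl5, Cxcl12 and Tnfaip3 and the lowest for Cxcl1, Il6, Lif and Ptgs2. Where library set in the model, or leaving out this library, ended the call of a named gene, that value is given beside the result. Fits within a set are given for some results. Fibroblast markers (8 of 8 in the tables) summed to between 15350 and 18330 CPM in the control, 45-min and 135-min samples and to between 12030 and 16610 CPM at 405 min, where Fn1 rather than Vim was the highest of them. Macrophage markers were listed under 8 symbols, of which 7 were in the tables. They summed to between 4.59 and 8.91 CPM in the control, 45-min and 135-min samples and to between 12.2 and 14.6 CPM at 405 min. Cd14 was the highest of them, and none was at 0 throughout a group. Endothelial markers (5 of 5 in the tables) summed to at most 3.84 CPM, with Pecam1 and Tie1 at 0 in all 405-min samples, and epithelial markers (5 of 5) to at most 2.79 CPM. Whether these marker differences have a part in the 405-min results was not tested. In bulk samples such as these, fewer cells that express a gene and less of its RNA per cell cannot be told apart.

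Promoter sequences from RefSeq (build GRCm38.p6, whose coordinates differ from those of the deposited tables) were available for 7 of the 10 genes, in 8 windows because Tnfaip3 has a pair of starts. The 250 bases before each start were searched on both strands for the NF-kB consensus, a motif of 10 letters, and for the AP-1 motif TGANTCA. An NF-kB match was found for 5 of the 7 genes (Nfkbia, Cxcl1, Il6, Tnfaip3 and Lif) and an AP-1 match for 3 (Il6, Tnfaip3 and Lif). Of the 32851 windows of the table, 7.25% held the first motif and 6.75% the second. These shares count windows rather than genes and are given for scale, without a test. The genes were chosen by name for their link to inflammation and NF-kB, so they are not a random sample. Shown here are the called genes with an entry (Nfkbia, Ptgs2 and Cxcl12) and Cxcl1, the chemokine with a match, each 5′ to 3′ on the gene's strand up to the base before the start, with the NF-kB match in capitals.
Nfkbia, chr12:55492648-55492897, strand -: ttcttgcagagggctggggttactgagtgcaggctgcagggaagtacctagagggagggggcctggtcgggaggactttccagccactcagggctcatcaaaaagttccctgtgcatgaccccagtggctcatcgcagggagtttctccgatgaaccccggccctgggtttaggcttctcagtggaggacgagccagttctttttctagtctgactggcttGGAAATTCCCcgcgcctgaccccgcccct
Cxcl1, chr5:90890995-90891244, strand +: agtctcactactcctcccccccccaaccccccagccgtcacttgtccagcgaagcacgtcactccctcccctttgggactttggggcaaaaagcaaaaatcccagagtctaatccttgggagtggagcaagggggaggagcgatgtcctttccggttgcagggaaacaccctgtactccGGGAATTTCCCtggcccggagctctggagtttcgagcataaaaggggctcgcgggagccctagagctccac
Ptgs2, chr1:150099781-150100030, strand +: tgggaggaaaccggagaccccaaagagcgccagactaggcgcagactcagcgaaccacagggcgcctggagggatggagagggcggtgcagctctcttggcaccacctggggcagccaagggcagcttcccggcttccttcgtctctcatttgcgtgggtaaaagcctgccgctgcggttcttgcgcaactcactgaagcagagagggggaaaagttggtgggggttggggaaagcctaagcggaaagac
Cxcl12, chr6:117168285-117168534, strand +: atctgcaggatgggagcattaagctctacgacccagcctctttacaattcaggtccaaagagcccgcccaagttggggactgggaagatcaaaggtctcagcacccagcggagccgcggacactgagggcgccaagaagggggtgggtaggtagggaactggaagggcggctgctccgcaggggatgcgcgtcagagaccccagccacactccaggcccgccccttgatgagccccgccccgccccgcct
In Nfkbia the match lay at -29 to -20 from the start, and in Cxcl1 a pair of overlapping matches on opposite strands spanned -71 to -61. No match was found in the windows of Ptgs2 and Cxcl12. In Il6 the NF-kB match was at -44 to -35. Ccl2, Ccl7 and Cxcl5 had no entry. A match describes letters in the window and is not evidence of binding.

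Per length, as RPKM, Ccl2 was the most abundant of the 10 mRNAs in every group, and it rose at 135 min. Ccl2 encodes a chemokine that attracts monocytes, and lies at chr11:81849079-81850954 in the mm9 coordinates of the tables. The 5 control libraries gave 196, 104, 467, 179.5 and 148 CPM in replicate order. The samples at 45 min gave 122, 140.4 and 92.0 CPM. At 135 min they gave 548, 663 and 744 CPM, above all controls. By 405 min Ccl2 was at 273, 295, 312 and 241 CPM, a range that lay above 4 of the 5 controls and below all 135-min samples. The fitted change from control to 135 min was 1.58 (SE 0.34) on the log2 scale, or 2.98-fold, with an edgeR adjusted p of 0.0341. Leaving out control replicate 3 gave 2.06 (adjusted p 0.000185), and within library set 1 the change was 1.41 (adjusted p 0.0374). The call was lost when any 1 of the 135-min samples or control replicate 1, 4 or 5 was left out, where edgeR adjusted p ran from 0.0821 to 0.173 and the change from 1.47 to 1.69. At 405 min the change from control was 0.36 (SE 0.32, edgeR adjusted p 0.403). That value also turned on control replicate 3, since without it the change was 0.81 (adjusted p 0.0153). Within set 2, which compares 3 libraries with the lone control replicate 2 and assumes that it varies like the others, the change at 405 min was 1.36 (adjusted p 0.00424). From 135 to 405 min the difference was -1.22 (SE 0.37), with an edgeR adjusted p of 0.0652 that did not pass the threshold. With library set in the model it was -0.71 (edgeR adjusted p 0.358). It was called by DESeq2 (-1.23, adjusted p 0.0205) and by edgeR on those groups alone (-1.25, adjusted p 0.00409). It was also called with library sizes from the deposited RPKM (-1.28, edgeR adjusted p 0.0398), and in no other alternative.

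Ccl7 was called lower at 405 min than at 135 min, and its 405-min samples lay within the range of the controls. Ccl7, another monocyte-attracting chemokine, is the neighbour of Ccl2 at chr11:81859214-81861023, with 8260 bases between the genes. Its control values were 63.5, 22.4, 115.1, 62.2 and 45.3 CPM, and those at 45 min were 41.1, 49.4 and 24.3 CPM. At 135 min Ccl7 was at 114.0, 150.1 and 172 CPM, so that the lowest sample lay just under control replicate 3. At 405 min it was at 24.8, 36.1, 72.1 and 34.8 CPM. The value of 72.1 CPM came from replicate 3, the only 405-min library in set 1. The change from control to 135 min was 1.24 (SE 0.42) with an edgeR adjusted p of 0.203. It was 1.11 with library set in the model (adjusted p 0.013) and 1.04 within set 1 (adjusted p 0.0494). From 135 to 405 min Ccl7 fell by 1.80 (SE 0.45) on the log2 scale, 3.47-fold, with an edgeR adjusted p of 0.034. With library set in the model the difference was -0.95 (adjusted p 0.114), and within set 1 it was -1.03 (adjusted p 0.391). The call held in 1 of the 7 fits that left out a single library, the one without 405-min replicate 3 (-2.19, edgeR adjusted p 0.0161). In the other 6 fits adjusted p ran from 0.0847 to 0.125.

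The relation between these neighbours was therefore given per library as the ratio of Ccl2 RPKM to Ccl7 RPKM, a quantity chosen after its values were seen and given with no test. The ratio was between 2.85 and 4.61 in the controls, between 2.81 and 3.74 at 45 min and between 4.28 and 4.75 at 135 min. At 405 min it was 10.9, 8.07 and 6.86 in replicates 1, 2 and 4, all of set 2, and 4.28 in replicate 3, of set 1. Control replicate 2, which is in set 2, had the highest control ratio, 4.61, and the 45-min library of set 2 had the highest ratio of its group, 3.74. The 3 set 2 libraries at 405 min thus lay above the set 2 libraries of the other times and above the set 1 library of their own time.

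**Figure D1:**
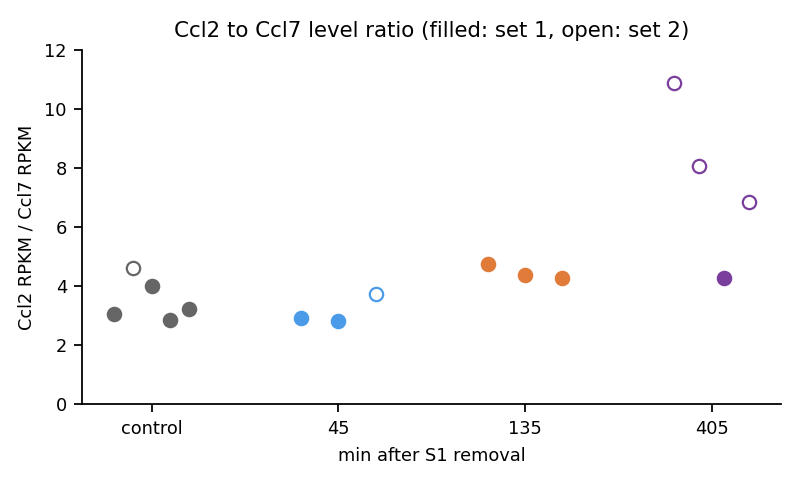
Ratio of the Ccl2 level to the Ccl7 level in each library (RPKM over RPKM, vertical axis, linear from 0) for the controls and the 3 times after S1 removal. Filled points are libraries of set 1 and open points those of set 2. The 3 open points at 405 min lie between 6.86 and 10.9 and the filled one at 4.28.

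Cxcl1 was scarce and did not pass the test at any time, while Cxcl5 was called lower at 405 min against uneven controls. Both encode chemokines that attract neutrophils, and their genes lie on chromosome 5 with 129620 bases between them. Cxcl1 had 1 to 78 counts per library. It was at 2.99, 1.75, 0.174, 2.04 and 0.815 CPM in the controls and at 2.44, 2.46 and 2.85 CPM at 135 min, and it was between 0.716 and 1.40 CPM at 45 min and between 1.21 and 1.66 CPM at 405 min. Its changes of 0.69 (SE 0.51) at 135 min and -0.16 (SE 0.49) at 405 min were not called (edgeR adjusted p 0.647 and 0.81). The 135-min values lay within the range of the controls. Cxcl5 was at 36.3, 9.87, 129.7, 35.8 and 15.8 CPM in the controls. It was at 9.04, 13.0 and 2.44 CPM at 45 min, at 6.41, 7.31 and 7.51 CPM at 135 min, and at 6.29, 7.78, 16.1 and 4.45 CPM at 405 min. All 135-min samples lay below all controls, and the 45-min and 405-min ranges each overlapped them. The change at 405 min was -2.39 (SE 0.69), 5.24-fold lower, with an edgeR adjusted p of 0.025, and the change at 135 min was -2.67 (SE 0.78) with an adjusted p of 0.138. The call at 405 min depended on control replicate 3, since without it the change was -1.53 (edgeR adjusted p 0.0604). It was also lost without 405-min replicate 1, 2 or 4. With library set in the model the change at 405 min was -1.18 (adjusted p 0.166), within set 1 it was -1.74 (adjusted p 0.365) and within set 2 it was -0.68 (adjusted p 0.344). At 135 min no set 2 library enters the time group. The change there was -2.91 within set 1, which includes control replicate 3 (edgeR adjusted p 0.0247). It was -2.84 with library set in the model (adjusted p 0.0047) and -1.78 without control replicate 3 (adjusted p 0.218). With just the compared groups in the fit it was -2.655 (adjusted p 0.273).

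Cxcl12 was called lower at 405 min. Cxcl12 encodes the ligand of CXCR4, a chemokine that stromal cells make without stimulation and that holds stem cells and lymphocytes in place. The controls gave 43.2, 38.5, 69.4, 39.7 and 38.8 CPM. At 45 min Cxcl12 was at 34.6, 40.3 and 32.6 CPM, at 135 min at 27.3, 27.1 and 28.1 CPM, and at 405 min at 18.4, 14.9, 25.5 and 20.7 CPM. The samples at 135 min lay below all controls and those at 405 min below all samples of the other groups. The change at 405 min was -1.21 (SE 0.21), 2.31-fold lower, with an edgeR adjusted p of 0.00161. It was -1.04 without control replicate 3 (adjusted p 0.00101), -1.03 with library set in the model (adjusted p 0.0024), -1.11 within set 2 (adjusted p 0.015) and -0.91 within set 1, where a single 405-min library remains (adjusted p 0.207). The call held in 9 of 9 fits that left out a single library. At 135 min the change was -0.74 (SE 0.22, edgeR adjusted p 0.158), and it was -0.80 with library set in the model (adjusted p 0.0206) and -0.54 without control replicate 3 (adjusted p 0.202). From 135 to 405 min the difference of -0.47 (SE 0.23) was not called (edgeR adjusted p 0.195).

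The cytokine mRNAs Il6 and Lif were scarce, and Il6 was near the limit of what these depths measure. Il6, a cytokine of the acute-phase response, had 0 to 30 counts per library. It was not counted in control replicate 3, where 0 of 6652539 counts allows up to 3 counts or 0.523 CPM, counting error only. The remaining controls were at 1.82, 1.15, 0.204 and 1.09 CPM. Il6 was at 0.997, 1.93 and 0.239 CPM at 45 min and at 0.427, 0.418 and 0.802 CPM at 135 min. At 405 min it was at 0.276, 0.477, 0.29 and 0.165 CPM, and all 3 groups overlapped the controls. The change at 405 min was -1.51 (SE 0.89, edgeR adjusted p 0.30 in the fit without a filter), and no difference in Il6 was detectable at this depth. Lif, a cytokine of the Il6 family that keeps mouse stem cells in culture undifferentiated, was at 2.11, 2.75, 0.349, 1.90 and 0.815 CPM in the controls and at 3.92, 2.14 and 5.73 CPM at 45 min. At 135 min Lif was at 5.31, 2.56 and 4.16 CPM and at 405 min at 3.73, 3.20, 1.16 and 3.02 CPM. All 3 groups overlapped the controls. Above every control lay 2 of 3 samples at 45 min, 2 of 3 at 135 min and 3 of 4 at 405 min. The changes were 1.26 (SE 0.52) at 45 min, 1.28 (SE 0.52) at 135 min and 0.76 (SE 0.49) at 405 min, with edgeR adjusted p of 0.698, 0.32 and 0.241. With library set in the model the 135-min change was 1.58 (adjusted p 0.0354).

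Ptgs2 was higher at 405 min than in all but 1 control, and that control was the one of set 2. Ptgs2 encodes cyclooxygenase 2, the inducible enzyme that starts prostaglandin synthesis. The controls gave 150.0, 211.6, 90.0, 117 and 113 CPM. The samples gave 211.4, 205 and 194 CPM at 45 min, 194, 200.2 and 170.5 CPM at 135 min, and 215, 238, 211 and 245 CPM at 405 min. Control replicate 2 was as high as the time groups, and the other 4 controls lay below every later sample. The change at 405 min was 0.74 (SE 0.19), 1.67-fold, with an edgeR adjusted p of 0.017. It was 0.57 with library set in the model (adjusted p 0.0403) and 0.83 within set 1 (adjusted p 0.0882). Within set 2, against the lone control replicate 2, it was 0.13 (adjusted p 0.838). The call was also lost without 405-min replicate 4 (0.70, edgeR adjusted p 0.0561). At 45 and 135 min the changes were 0.58 (SE 0.21, edgeR adjusted p 0.698) and 0.46 (SE 0.21, adjusted p 0.389), and within set 1 the 135-min change was 0.68 (adjusted p 0.0364).

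Nfkbia, which encodes the inhibitor IkBα and is itself a standard NF-kB target, rose at 135 min and fell again from 135 to 405 min. The 5 controls lay close together, at 42.9, 34.2, 41.0, 40.7 and 38.7 CPM. At 45 min Nfkbia was at 29.8, 30.4 and 26.7 CPM, below all controls. At 135 min it was at 67.1, 71.4 and 61.9 CPM, above every other sample, and at 405 min at 42.8, 37.0, 33.3 and 31.1 CPM, across the control range. The rise at 135 min was 0.76 (SE 0.14), 1.69-fold, with an edgeR adjusted p of 0.0155. The fall from 135 to 405 min was 1.85-fold, a log2 change of -0.89 (SE 0.15), with an edgeR adjusted p of 0.00724. The change at 405 min against control was -0.13 (SE 0.13, adjusted p 0.465). At 45 min the change was -0.45 (SE 0.15), with an unadjusted p of 0.00886 and an edgeR adjusted p of 0.698, so it was not called. Within set 1 the rise at 135 min was 0.72 (adjusted p 0.0141), and with an offset for GC content it was 0.64 (adjusted p 0.116). From 135 to 405 min the change was -0.81 with library set in the model (edgeR adjusted p 0.017). Within set 1, where a single 405-min library remains, that change was -1.02. The 135-min call was lost when any 1 of the 3 samples was left out (edgeR adjusted p 0.0605 to 0.114), while the call from 135 to 405 min held in 6 of 7 such fits and was lost without 135-min replicate 2 (adjusted p 0.0612).

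Tnfaip3, which encodes the ubiquitin-editing inhibitor A20 and is another standard NF-kB target, was not called in any comparison by the edgeR fit over all samples. Its controls were at 12.1, 10.3, 24.2, 8.77 and 6.63 CPM and its 135-min samples at 11.6, 13.5 and 9.63 CPM. At 45 min it was at 7.68, 9.64 and 9.90 CPM and at 405 min at 6.08, 4.77, 8.69 and 7.31 CPM. Every group overlapped the controls, and the 405-min samples lay below all 135-min samples. The changes were -0.08 (SE 0.35) at 135 min and -0.87 (SE 0.33) at 405 min, with edgeR adjusted p of 0.956 and 0.0657. The 405-min change was called by DESeq2 (-0.90, adjusted p 0.0299) and by edgeR without control replicate 2 or 5 or 405-min replicate 3 (adjusted p 0.0384 to 0.0449), while without control replicate 3 it was -0.52 (edgeR adjusted p 0.135). From 135 to 405 min the difference of -0.79 (SE 0.37, edgeR adjusted p 0.177) was called when the fit held those groups alone (-0.82, adjusted p 0.0378). The 135-min value had no steady sign, since it was 0.30 without control replicate 3. The difference between the changes of Tnfaip3 and Nfkbia was not tested.

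**Figure D2:**
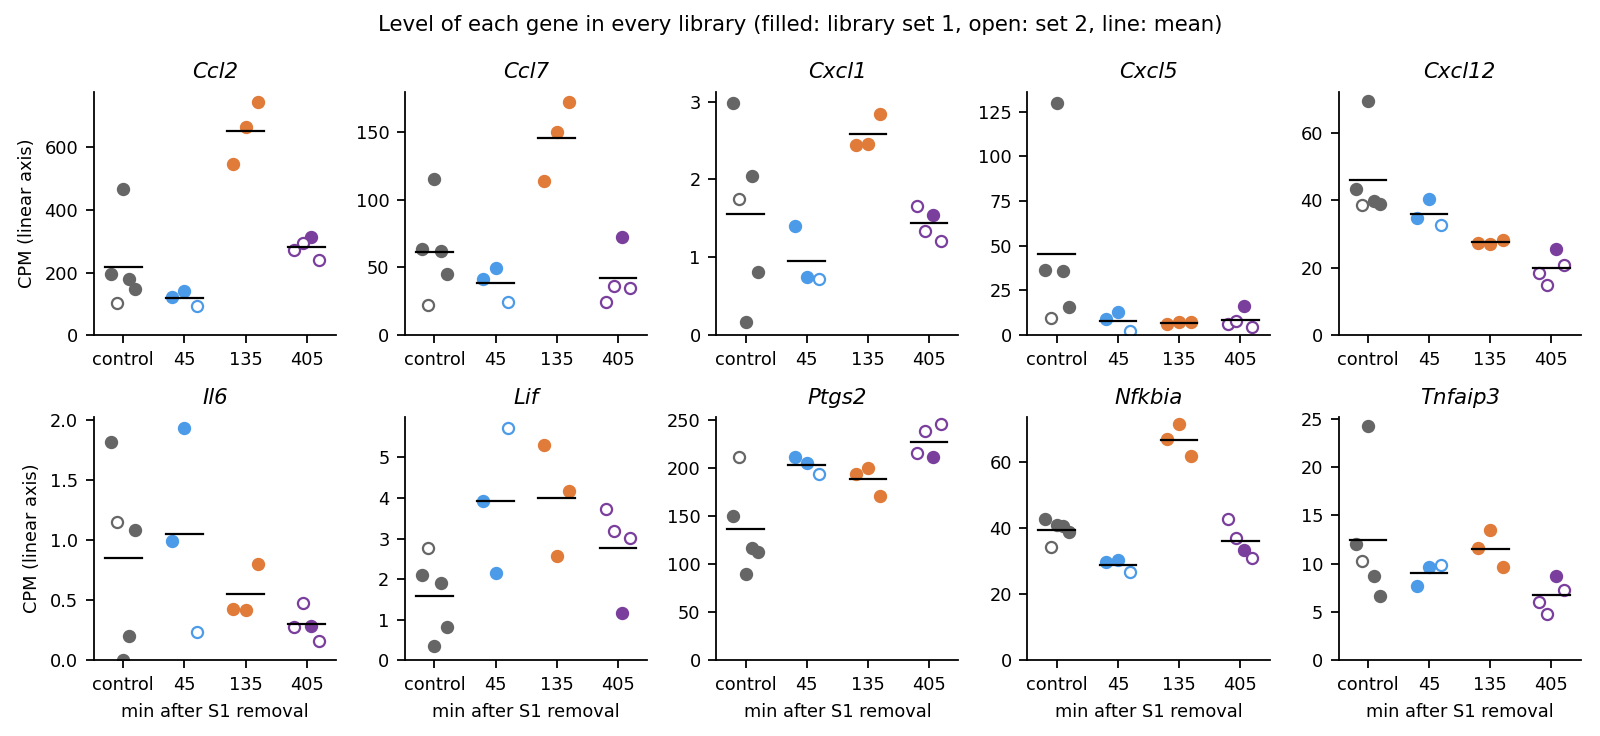
Level of each of the 10 genes in every library (TMM-scaled CPM, linear axes from 0), for the controls and at 45, 135 and 405 min after S1 removal. Each point is a library (filled, set 1; open, set 2) and the line is the group mean. Ccl2 and Nfkbia at 135 min lie above all controls, Cxcl12 at 405 min lies below all, and control replicate 3 is the highest control point for Ccl2 (467 CPM), Cxcl5 (129.7 CPM) and Cxcl12 (69.4 CPM).

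Set side by side, the comparisons had different genes past the threshold. The 3 comparisons with control share the 5 control samples, so their values are not independent of each other. The genes were chosen with earlier results of these data known, so the shares of all genes are given for scale and without a test. At 45 min 0 of 9 genes were called higher and 0 lower, as for all genes tested (0.0% higher and 0.0% lower). At an unadjusted p under 0.05 the edgeR fit gave 2 higher (Lif and Ptgs2) and 3 lower (Ccl2, Cxcl5 and Nfkbia), beside 1.25% and 2.3% of all genes, and DESeq2 also called 0. At that time 1 gene, Nfkbia, did not overlap the controls, beside 0.915% of all genes. At 135 min 2 of 9 were called higher (Ccl2 and Nfkbia) and 0 lower, beside 0.564% and 0.895% of all genes, and 4 (Ccl2, Cxcl5, Cxcl12 and Nfkbia) did not overlap the controls, beside 9.54%. At 405 min 1 was called higher (Ptgs2) and 2 lower (Cxcl5 and Cxcl12), beside 9.99% and 13.4% of all genes, and 1 (Cxcl12) did not overlap, beside 13.2%. These counts at 405 min were near the background share. From 135 to 405 min 0 were called higher and 2 lower (Ccl7 and Nfkbia), beside 2.24% and 2.82%, and 7 did not overlap, beside 36.8%. The median change of the 9 genes was -0.45 at 45 min, 0.69 at 135 min, -0.16 at 405 min and -0.79 from 135 to 405 min, where all genes had medians of 0.02, -0.06, 0.00 and 0.04.

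**Figure D3:**
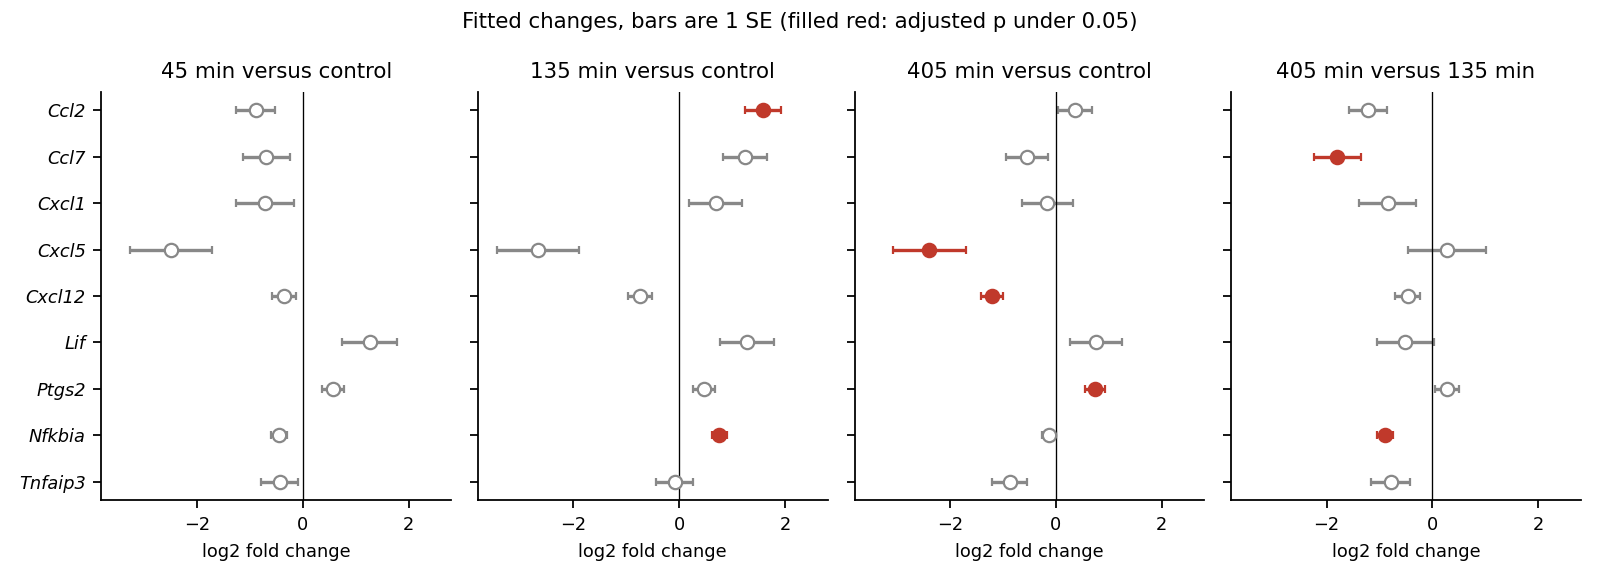
Fitted log2 fold change (horizontal axis) of the 9 tested genes in each of the 4 comparisons, with bars of 1 SE. Filled red points have an edgeR adjusted p under 0.05, which are Ccl2 and Nfkbia at 135 min, Cxcl5, Cxcl12 and Ptgs2 at 405 min, and Ccl7 and Nfkbia from 135 to 405 min.

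**Figure D4:**
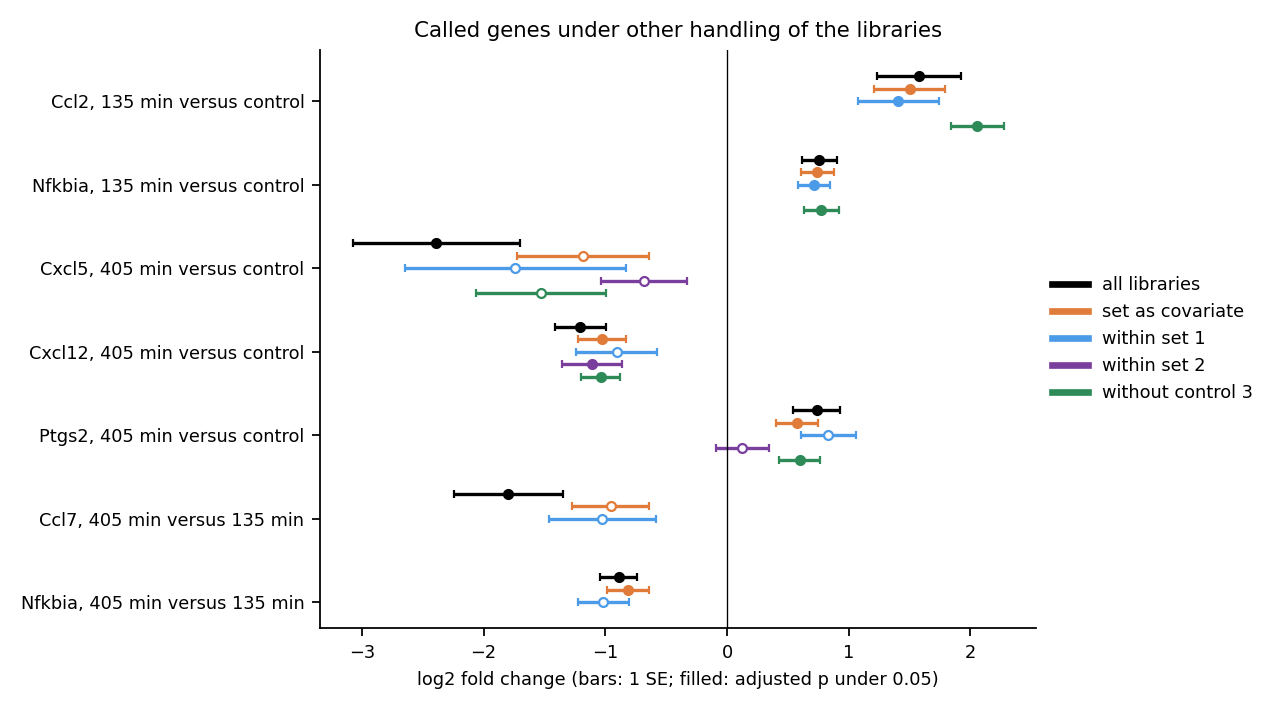
Log2 fold change (horizontal axis, bars of 1 SE) of each called gene with all libraries, with library set in the model, within each set, and without control replicate 3. Filled points have an edgeR adjusted p under 0.05. Cxcl12 at 405 min stays between -1.21 and -0.91, while Cxcl5 moves from -2.39 to -0.68 and Ptgs2 from 0.83 to 0.13. No value exists within set 2 for comparisons with 135 min, which has no library there.

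Levels of different genes can be compared only per length, as RPKM. In the controls Ccl2 stood first at 105.7 ± 26.0 RPKM (SD, n = 5), above the range of every other gene. Ccl7 (31.0 ± 9.05), Ptgs2 (15.5 ± 7.99), Nfkbia (11.2 ± 2.82), Cxcl12 (10.6 ± 1.01) and Cxcl5 (9.56 ± 6.18) followed, each overlapping the next in range. Below a gap came Tnfaip3 (1.13 ± 0.233), Cxcl1 (0.792 ± 0.54), Il6 (0.397 ± 0.335) and Lif (0.20 ± 0.133), again each overlapping the next. At 135 min Ccl2 was at 415 ± 62.9 RPKM (SD, n = 3) and Ccl7 at 93.6 ± 18.9, each clear of the next, while Ptgs2 (23.3 ± 2.13) and Nfkbia (21.7 ± 1.77) overlapped. At 405 min Ptgs2 (27.0 ± 3.92, n = 4) and Ccl7 (26.1 ± 13.4) overlapped under Ccl2 (171 ± 27.0), and Nfkbia (11.1 ± 1.21) stood above Cxcl12 (5.26 ± 1.22).

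The rest of the pathway was read from 7 lists of 122 genes, of which 118 were in the tables and 77 passed the filter. At 45 min 0 were called in either direction by edgeR. At 135 min 2 of the 77 were called higher and 1 lower, beside 0.564% and 0.895% of all genes. Ier3, an early-response gene that protects against cell death, rose by 2.09 on the log2 scale (SE 0.44, edgeR adjusted p 0.0311), with 5.46 ± 3.75 CPM in the controls (SD, n = 5) and 23.9 ± 5.49 CPM at 135 min (SD, n = 3). Traf3, an adaptor that restrains the non-canonical NF-kB branch, rose by 0.68 (SE 0.16, adjusted p 0.0455), from 43.7 ± 7.16 to 70.0 ± 10.9 CPM. The change of Traf3 was 0.62 without control replicate 3 (edgeR adjusted p 0.0732). Ptx3, a secreted pattern-recognition protein and a known NF-kB target, fell by 1.81 (SE 0.35, adjusted p 0.0175), from 55.8 ± 31.7 to 15.9 ± 2.74 CPM.

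At 405 min 12 of the 77 were called higher and 14 lower, beside 9.99% and 13.4% of all genes. By list these were 1 and 6 among 16 receptors, 3 and 1 among 20 adaptors, kinases and ligases, and 2 and 0 among 4 NF-kB subunits. They were 3 and 1 among 14 genes listed as other feedback inhibitors and 3 and 3 among 10 other target genes. They were 0 and 2 among 7 other chemokines and cytokines, and 0 and 1 among 6 genes listed as mRNA decay factors. The list names are broad and need not hold for every member. The median change of the 77 genes was 0.11, beside 0.00 for all genes. Among the receptors, Osmr, the oncostatin M receptor subunit, fell by 2.06 (SE 0.24, edgeR adjusted p 0.000111), from 110.3 ± 38.8 to 26.4 ± 1.96 CPM. Il1r1, the signalling receptor for interleukin 1, fell by 1.27 (SE 0.15, adjusted p 0.000101). Both calls held with library set in the model, at -1.73 and -1.31 (edgeR adjusted p 9.9e-05 and 4.92e-05). Ptx3 was lower by a log2 change of -2.27 (SE 0.32, edgeR adjusted p 0.000405) and Zfp36l2, which promotes decay of AU-rich mRNAs, by -1.36 (SE 0.23, adjusted p 0.00145). Tslp and Ccl9 had changes of -2.40 and -1.53 (edgeR adjusted p 0.0163 and 0.0191), and neither was called with library set in the model (adjusted p 0.054 and 0.128).

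Of the genes called higher at 405 min, Ier3 changed by 2.54 (SE 0.43, edgeR adjusted p 0.00141) and Traf3 by 0.97 (SE 0.15, adjusted p 0.00061), and both kept their call with library set in the model. Tapbp, which loads peptides on MHC class I, changed by 2.10 (SE 0.65, edgeR adjusted p 0.0334), and Nfkbib, the inhibitor IkBβ, by 1.71 (SE 0.46, adjusted p 0.0192). With library set in the model these were 1.25 (adjusted p 0.0366) and 1.27 (adjusted p 0.0432), and without control replicate 3 the change of Tapbp was 1.82 (adjusted p 0.0517). Among the NF-kB subunits, Rela changed by 0.95 (SE 0.32, edgeR adjusted p 0.0452) and Nfkb2 by 1.57 (SE 0.52, adjusted p 0.0418). Neither was called with library set in the model, at 0.40 and 0.74 (adjusted p 0.145 and 0.0787), and nor was Ptges, a prostaglandin E synthase that acts after Ptgs2 (0.97, then 0.58 with adjusted p 0.134). Without control replicate 3 Rela and Nfkb2 were not called either (0.83 and 1.32, edgeR adjusted p 0.0881 and 0.0719). Nfkb1 and Rel were not called at 405 min (-0.20 and -0.38, edgeR adjusted p 0.389 and 0.423), nor were any of the 4 tested subunits at 45 or 135 min. Rel was lower without control replicate 3 (-0.64, edgeR adjusted p 0.0406). Relb did not pass the filter.

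**Figure D5:**
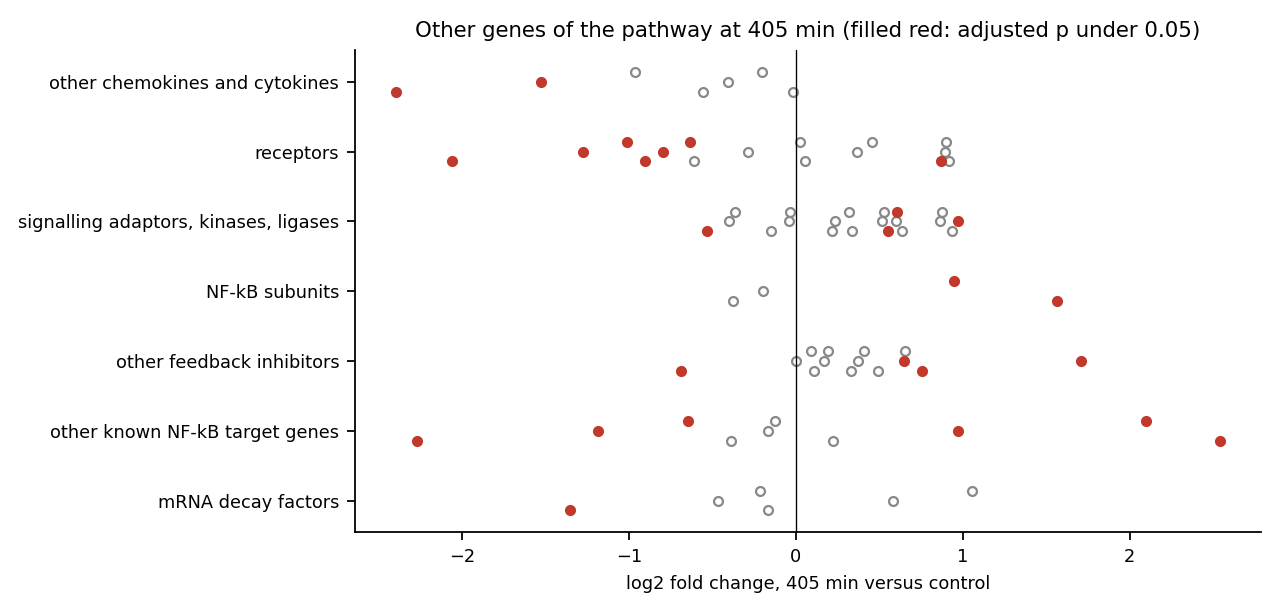
Log2 fold change at 405 min against control (horizontal axis) of the 77 tested genes of the pathway other than the 10 described, 1 point per gene and 1 line of points per list. Filled red points have an edgeR adjusted p under 0.05. Of the 16 receptors 1 is called higher and 6 lower, where over all genes 1027 were called higher and 1382 lower, and Ier3 at 2.54 and Tslp at -2.40 are the outermost points.

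From 135 to 405 min 2 of the 77 were called higher and 4 lower, beside 2.24% and 2.82% of all genes. Osmr fell by 1.51 between these times (SE 0.26, edgeR adjusted p 0.00732) and Il1r1 by 0.64 (SE 0.16, adjusted p 0.036). Il1rl1, the interleukin 33 receptor, fell by 0.55 (SE 0.13, adjusted p 0.0284), from 768 ± 11.3 to 525 ± 57.6 CPM. Vcam1, an adhesion molecule induced by NF-kB, fell by 0.48 (SE 0.13, adjusted p 0.044). Tax1bp1, a partner of A20, and Btrc, the ligase subunit that marks IkB for breakdown, changed by 0.53 and 0.72 (edgeR adjusted p 0.0314 and 0.0371). With library set in the model Osmr, Il1r1 and Vcam1 were still called (adjusted p 0.028, 0.0497 and 0.025), and Il1rl1, Tax1bp1 and Btrc were not (adjusted p 0.0553, 0.0559 and 0.12).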

How the data were processed

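Poly(A) RNA was sequenced on an Illumina HiSeq instrument in 15 samples, grouped by their titles. According to the study's methods and processing notes, the authors aligned reads to mm9 and quantified RefSeq genes on DNAnexus, with the aligner version not given in the sources used here. The read counts deposited by the authors are estimated counts, which the authors made by assigning aligned reads to genes. Some are fractional, and they were rounded to whole numbers. The deposited RPKM is per gene length and depth and was used for levels between genes. A deposited standard score (Z-score) and a deposited ratio of RPKM to its root mean square were not used.

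Counts were fitted in edgeR 4.0.16 (R 4.3.3) with TMM scaling, a term for group and glmQLFTest over all 15 samples, keeping genes counted at least once in all samples (minimum 1), after the study's own edgeR analysis. The alternatives were DESeq2 1.42.0, RLE size factors, other filters, the compared groups alone, library set, a GC offset (exonic GC from NCBIM37 with GENCODE vM1, found for 95.9% of tested genes), a replicate block, each library left out and, added after seeing the data, library sizes implied by the RPKM. The genes and pathway lists were chosen with earlier results of these data known. Named genes were all 10, the 5 NF-kB subunits, and of the other pathway genes up to 6 called higher and 6 lower per comparison with the largest changes. No replicate pair agreed within sampling noise (chi-square per degree of freedom of at least 10.0). Same-numbered samples did not deviate together (mean correlation -0.11 for 19 pairs, and 0.03 for 64 pairs of unlike number), so replicate numbers were not taken as pairs.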

Additional observations from a re-analysis of the deposited data

Results flagged for a closer look

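In 3 of the 20 gene and group pairs examined, 1 library stood apart from the others by Dixon's criterion, and chance sets apart about 1 group in 20. All 3 were control replicate 3, the shallowest library. It had 467 CPM of Ccl2, where the other controls had 104 to 196 CPM and the gap took up 0.748 of the range. It had 129.7 CPM of Cxcl5 (gap 0.78 of the range) and 69.4 CPM of Cxcl12 (gap 0.848 of the range). Without this library the edgeR change of Ccl2 at 135 min went from 1.58 to 2.06, that of Cxcl5 at 405 min from -2.39 to -1.53 and that of Cxcl12 at 405 min from -1.21 to -1.04. On the RPKM scale, which divides by a depth 1.74 times the median library's per gene count, this library was still the highest control for Ccl2 (142.5 RPKM) and Cxcl5 (19.3 RPKM) and was the lowest for Cxcl12 (9.22 RPKM). Why this library differs was not tested.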

How the results depend on the processing

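Every call kept its direction in all alternatives run, although several lost the threshold. Of the 7 calls, Cxcl12 at 405 min held in 11 of 12 alternatives other than leaving out a library, Ccl2 at 135 min in 8 of 11, Nfkbia at 135 min in 5 of 11, Cxcl5 and Ptgs2 at 405 min in 7 and 6 of 12, and Ccl7 and Nfkbia from 135 to 405 min in 7 and 8 of 11. When the fit held just the groups being compared, 0 genes were called higher at 135 min and 0 at 405 min, 1 lower at 405 min and 4 lower from 135 to 405 min. With the replicate block these counts were 0, 0, 1 and 0, and with the replicate block and the GC offset 0 were higher at 135 min and 0 at 405 min. With library set as a covariate 4 were higher and 2 lower at 135 min, 1 lower at 405 min and 1 lower from 135 to 405 min. Within set 1 the counts were 4 higher and 1 lower at 135 min, 0 higher and 0 lower at 405 min and 0 lower from 135 to 405 min, and within set 2 1 was lower at 405 min. The GC offset gave 1 lower at 135 min, DESeq2 2 lower at 135 min and the fit with no filter 1 higher at 135 min. Library sizes from the deposited RPKM, an alternative chosen after seeing the data, moved the median of all genes to 0.23, 0.12 and 0.11 at 45, 135 and 405 min and gave 1 higher at 135 min, 0 higher at 405 min and 1 lower from 135 to 405 min. Leaving out 1 library gave 0 to 3 higher and 0 to 1 lower at 135 min, 0 to 2 higher and 1 to 3 lower at 405 min, and 0 to 2 lower from 135 to 405 min.

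Of the log2 changes, 15 values changed sign, none of them of a called gene in its comparison. Within set 2 these were Ccl7 (0.12), Il6 (-2.24) and Ptgs2 (-0.13) at 45 min, and Ccl7 (0.50) and Nfkbia (0.10) at 405 min. Within set 1 they were Ccl7 (0.01) and Lif (-0.23) at 405 min. Ccl7 at 405 min was 0.15 with the set covariate, Cxcl1 at 405 min was 0.01 with the GC offset, and Tnfaip3 at 135 min was 0.26 with RPKM library sizes. Over the fits that left out a library, the change ran from -0.42 to 0.18 for Cxcl1 at 405 min (0.18 without control replicate 1), from -0.20 to 0.50 for Cxcl5 from 135 to 405 min (-0.20 without 405-min replicate 3) and from -0.23 to 0.30 for Tnfaip3 at 135 min (0.30 without control replicate 3 and 0.03 without 135-min replicate 3). Il6 at 45 min could be fitted with the filter on low counts once control replicate 3 was left out, at -0.08. The other pathway genes called at 405 min numbered 1 to 13 higher and 3 to 17 lower over the settings, against 12 and 14. They numbered 0 to 5 higher and 0 to 8 lower at 135 min, against 2 and 1, and 0 to 22 higher and 0 to 11 lower from 135 to 405 min, against 2 and 4. Without control replicate 3 the counts were 1 and 2 at 135 min and 10 and 15 at 405 min. The cause of these differences was not tested. Il6, Lif and Cxcl1 had as few as 0, 2 and 1 counts in a library, in each case control replicate 3. Whether depth limits their results was not tested.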
